A study of Homo sapiens with 12 samples.

Results

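Glutathione is a tripeptide of glutamate, cysteine and glycine that cells use to reduce peroxides and conjugate electrophiles. Cysteine is usually its limiting part, and it reaches the cell as cystine through the antiporter xCT (SLC7A11) or is made from methionine by transsulfuration. Genes of this route were followed, set by a list of symbols: SLC7A11, CTH, CBS, GCLC, GCLM, GSS, GSR, GPX1, GPX4 and CHAC1. They are 10 genes beside a table of 19659, and 9 of them had a row. GPX1 was not analysed here. The members were chosen by their role and with their FPKM in the control and DMAG libraries already known, SLC7A11 and CHAC1 being among the deepest falls, so the group differences of the members are given as a description with no test.

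The libraries came from cells labelled HEL, a human erythroleukaemia line, that were either controls (n = 3) or had 40 µg/ml DMAG for 3 days (n = 3). DMAG is an ellagic acid derivative with methyl and glucose groups, taken from the burnet Sanguisorba. No dose, day or vehicle is given for the controls, and the labels do not say whether the samples of a group were separate cultures. RNA depleted of ribosomal RNA was sequenced, and levels are FPKM (fragment numbers per length of transcript and size of library), summed over the transcripts of a gene.

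Of 18 erythroid and megakaryocytic markers of the HEL lineage 15 stayed under 1 FPKM in every library. Among them GP9, a platelet receptor subunit, was listed at 0 in all 6. GYPC was at 8.71 to 13.4 FPKM and EPOR at 3.43 to 4.63 over the 6 libraries, and HBG2 reached 1.69 in DMAG replicate 3. The 12 granulocyte precursor markers, MPO and PRTN3 among them, had summed levels of 4280 to 4605 FPKM over the control libraries and 3798 to 4317 over the DMAG libraries. The sum joins genes that differed in both directions. In the fit described below 6 of the 12 were called higher and 5 lower, beside 22.4% and 26.1% of all genes tested. PRTN3 went from 846.8 to 962 FPKM in controls to 209 to 243 with DMAG, and LYZ from 165 to 169.5 up to 424 to 474. The labelled line was thus not matched by most of its listed lineage markers. DMAG replicate 3 stood apart with mature red cell RNA, whose 12 markers summed to 1988 FPKM there and to between 30.9 and 40.8 in the other 5 libraries. The part of that RNA in the results was not tested. Without this library the log2 differences described below were -1.69 for SLC7A11, -1.90 for CHAC1, -0.50 for CTH, -0.29 for GCLC, 0.21 for GCLM, 0.28 for GSS, -0.11 for GSR and -0.36 for GPX4. How deeply each library was sequenced is unknown.

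The promoters of 4 genes are shown because these genes carry the contrast described below: CHAC1 and CTH were lower with DMAG, and GCLC and GCLM, the subunits of 1 enzyme, differed in opposite directions. RefSeq promoter windows (GRCh38.p14, 250 bases before to 50 after the annotated start) existed for 7 of the 10 members. Each line gives the 250 bases before the start, 5′ to 3′ on the gene's strand, and capitals mark a match on either strand to TGATGNAA, the core of the element bound by ATF4 with C/EBP factors, or to TGACNNNGC, the core of the antioxidant response element bound by NRF2.
CHAC1, chr15:40953221-40953470, plus strand: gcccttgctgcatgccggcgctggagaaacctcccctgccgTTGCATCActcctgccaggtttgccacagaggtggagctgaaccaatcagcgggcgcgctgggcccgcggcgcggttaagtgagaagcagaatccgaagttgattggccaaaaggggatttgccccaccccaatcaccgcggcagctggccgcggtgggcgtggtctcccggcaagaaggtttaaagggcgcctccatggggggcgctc
CTH, chr1:70411018-70411267, plus strand: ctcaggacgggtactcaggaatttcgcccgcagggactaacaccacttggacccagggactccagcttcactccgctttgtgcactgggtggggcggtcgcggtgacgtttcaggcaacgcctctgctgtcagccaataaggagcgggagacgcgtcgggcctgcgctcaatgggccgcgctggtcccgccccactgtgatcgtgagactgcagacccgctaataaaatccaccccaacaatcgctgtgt
GCLC, chr6:53545102-53545351, minus strand: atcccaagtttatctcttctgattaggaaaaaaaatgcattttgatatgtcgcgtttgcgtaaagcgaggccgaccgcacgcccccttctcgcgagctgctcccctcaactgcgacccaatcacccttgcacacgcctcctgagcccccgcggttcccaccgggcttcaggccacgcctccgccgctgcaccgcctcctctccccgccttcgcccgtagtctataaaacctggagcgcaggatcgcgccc
GCLM, chr1:93909431-93909680, minus strand: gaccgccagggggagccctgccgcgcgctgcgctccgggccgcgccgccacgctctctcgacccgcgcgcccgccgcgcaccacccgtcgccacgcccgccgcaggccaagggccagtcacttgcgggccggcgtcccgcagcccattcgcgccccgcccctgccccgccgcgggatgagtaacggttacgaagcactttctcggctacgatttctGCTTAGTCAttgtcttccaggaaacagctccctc
CHAC1 held the first core at 209 to 202 bases before its start, where the opposite strand reads TGATGCAA. That core occurs in 3.62% of 35116 promoter windows. GCLM held the second core at 34 to 26 bases before its start, as TGACTAAGC on the opposite strand, a core found in 13.3% of windows. The windows shown for CTH and GCLC held neither. Among windows searched but not shown, a window of CBS held the second core (TGACCGCGC, 83 to 75 bases before the start). A window of SLC3A2, not a member, held both, and those of GPX1 and GPX4 held neither. A match is a stretch of letters and not a measured site.

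Among the members, the mRNAs of SLC7A11 and CHAC1 differed most between DMAG and control libraries, and those of the synthesis enzymes little. Both were chosen with these falls known, and cystine import and glutathione degradation themselves were not measured. SLC7A11 was 3.74-fold and CHAC1 6.24-fold lower. CTH, GPX4 and GCLC were 1.51-, 1.28- and 1.26-fold lower, GSR 1.08-fold lower, and GCLM and GSS 1.15- and 1.21-fold higher. Of the 9 genes with a row, 8 averaged at least 0.5 FPKM and entered a fit of all 10394 genes at that level (limma on log2(FPKM + 1), Benjamini-Hochberg adjusted p under 0.05). It called 6 of the 8 lower and 1 higher, beside 26.1% of all genes tested called lower and 22.4% called higher. The control and DMAG values did not overlap for any of the 8, as for 59.5% of all genes tested. Nothing is read from these counts. SLC7A11 and CHAC1 were the 2 members with a log2 change of -1 or less, as had 1.14% of all genes tested. The median log2 change was -0.34 over the 8 members and -0.01 over all genes. In RNA from bulk cultures, fewer cells of a kind and less RNA per cell cannot be told apart.

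**Figure D1:**
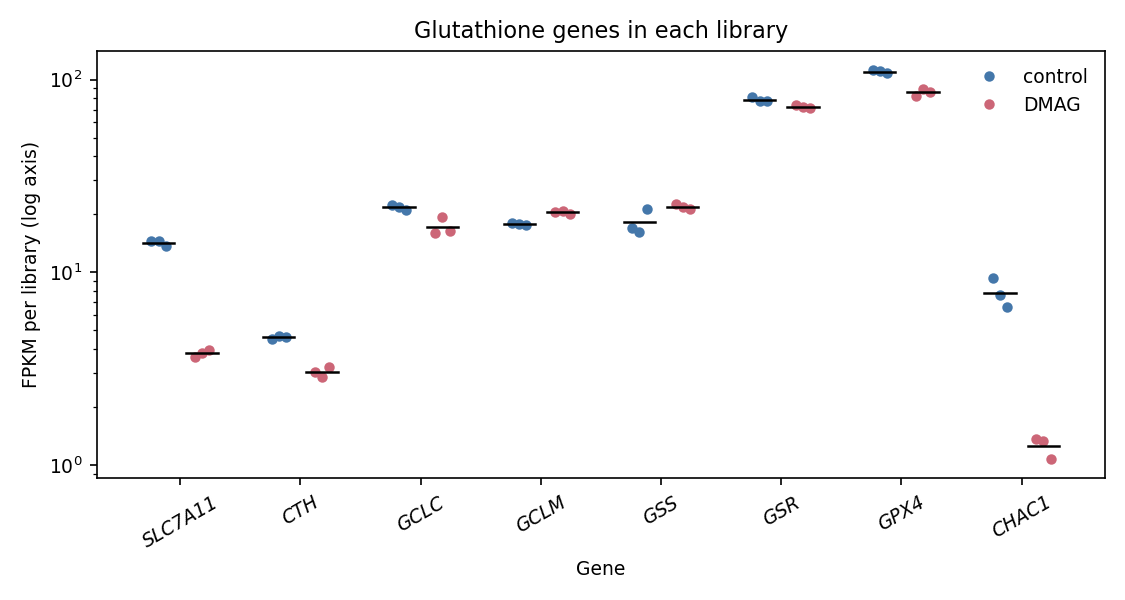
FPKM of the 8 members above 0.5 FPKM in each library (points, log axis; bars are means of 3 libraries). The SLC7A11 points lie at 13.6 to 14.5 in controls and 3.62 to 3.94 with DMAG, and the GSR and GPX4 points are the highest in both groups.

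SLC7A11 and CTH, on the import and transsulfuration routes to cysteine, were both lower, while CBS was at or near 0 in both groups. SLC7A11 (ENSG00000151012), which exchanges glutamate for cystine, was at 14.5, 14.5 and 13.6 FPKM in control replicates 1, 2 and 3 and at 3.62, 3.83 and 3.94 with DMAG. The 3 DMAG libraries lay close together, far below the lowest control. On the log2(FPKM + 1) scale the difference was -1.67 (SE 0.05). The table held a single transcript of this gene, so its value does not depend on how reads were divided among transcripts.

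CTH (ENSG00000116761), the lyase that splits cystathionine to free cysteine, was at 4.50, 4.68 and 4.63 FPKM in controls and at 3.05, 2.86 and 3.21 with DMAG. The groups were tight and did not overlap, a log2 difference of -0.47 (SE 0.06). CBS (ENSG00000160200), which makes cystathionine from homocysteine and serine, was listed at 0 in 5 libraries and at 0.0570 FPKM in DMAG replicate 2. CBSL, its near-identical copy in the genome, was listed at 0 in all 6, so reads divided between the copies could not be followed. SLC7A11 stood at 3.09 ± 0.141 times the CTH level in controls and at 1.25 ± 0.0790 times with DMAG (mean ± SD of FPKM ratios, n = 3).

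The enzymes of synthesis moved apart by small amounts. GCLC (ENSG00000001084), the catalytic subunit of glutamate-cysteine ligase and the rate-limiting enzyme of the route, was at 22.4, 21.9 and 21.0 FPKM in controls and at 16.0, 19.3 and 16.4 with DMAG. GCLM (ENSG00000023909), the modifier subunit of the same enzyme, was at 18.1, 17.8 and 17.5 FPKM and at 20.6, 20.8 and 20.2. DMAG replicate 2 was nearest the controls for GCLC, while the GCLM values spread by under 2% within each group (coefficient of variation 1.48% and 1.42%). The ratio of GCLM to GCLC was 0.805, 0.813 and 0.835 in controls and 1.29, 1.07 and 1.23 with DMAG, so the subunit with the higher level changed places. The log2 differences were -0.32 (SE 0.08) for GCLC and 0.19 (SE 0.04) for GCLM.

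GSS (ENSG00000100983), glutathione synthetase, adds glycine in the last step. It was at 17.1, 16.2 and 21.4 FPKM in controls and at 22.7, 21.7 and 21.4 with DMAG. Control replicate 3 lay just below the DMAG libraries, and the gene was the 1 member tested that was not called. Its log2 difference was 0.27 (SE 0.10), or 0.38 without control replicate 3, where it was called higher.

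Recycling and peroxide removal had the highest levels. GSR (ENSG00000104687), the reductase that returns oxidised glutathione to its reduced form, was at 81.2, 77.8 and 77.1 FPKM in controls and at 74.1, 71.9 and 71.5 with DMAG. This 7.8% difference depended on scaling. The FPKM of all mRNA came to 348907 to 357821 over the control libraries and 328350 to 332916 over the DMAG libraries. With libraries scaled to the same total, a choice made after the sums were seen, the log2 difference of GSR went from -0.12 to -0.02 and was not called. GSR was also not called without any 1 of the 3 controls or without DMAG replicate 2 or 3. GPX4 (ENSG00000167468), the selenoenzyme that reduces lipid hydroperoxides and restrains ferroptosis, was at 112, 111 and 108 FPKM and at 82.2, 89.8 and 85.9. Its log2 difference was -0.36 (SE 0.04), and -0.26 at the same total.

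CHAC1 (ENSG00000128965), a cyclotransferase that breaks down cytosolic glutathione and a target of ATF4, was at 9.32, 7.62 and 6.64 FPKM in controls and at 1.36, 1.34 and 1.08 with DMAG. Controls spread more than for most members (coefficient of variation 17.2%), yet the lowest control was far above the highest DMAG library. The log2 difference was -1.96 (SE 0.12) with 1 FPKM added and -2.54 with 0.1 added, since adding a constant understates the change of a low gene.

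**Figure D2:**
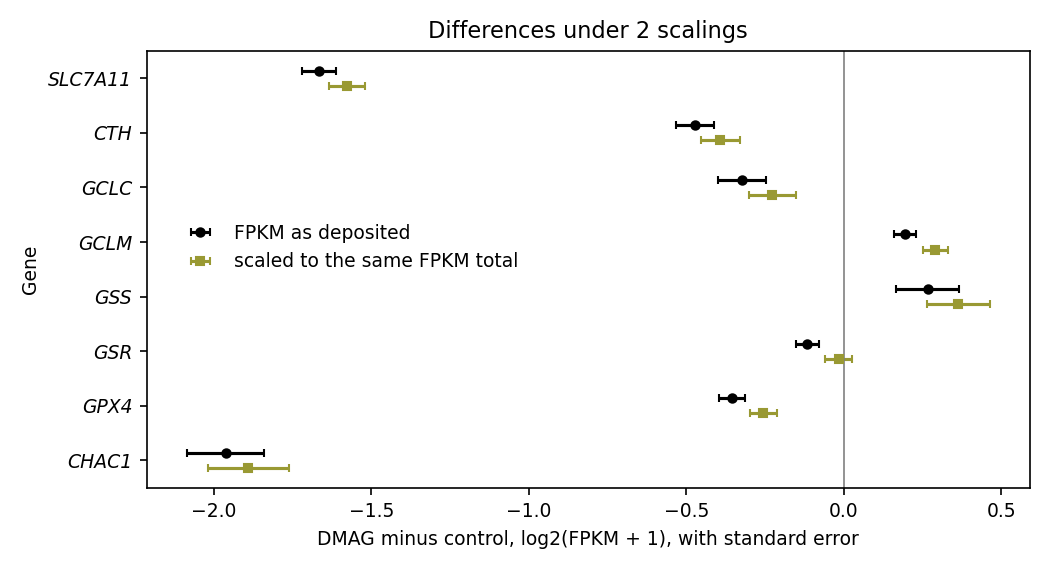
Difference between DMAG and control on log2(FPKM + 1) for each member, with its standard error, for FPKM as deposited (circles) and for libraries scaled to the same FPKM total (squares). SLC7A11 and CHAC1 lie below -1.5 under both scalings, and GSR moves from -0.12 to -0.02.

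FPKM is scaled to length, so levels can be ordered roughly across genes. The sums also rest on how reads were divided among transcripts, which differed between libraries for GSS, GCLC, CTH and CHAC1. In controls the order was GPX4, GSR, GCLC, GSS, GCLM, SLC7A11, CHAC1, CTH, and the ranges of GCLC and GSS, and of GSS and GCLM, overlapped. With DMAG it was GPX4, GSR, GSS, GCLM, GCLC, SLC7A11, CTH, CHAC1, and no neighbours overlapped. GCLC thus dropped below GSS and GCLM, and CHAC1 below CTH.

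For GSS, GCLC, CTH and CHAC1 the leading transcript was not the same in every library. For GSR, GPX4 and GCLM 1 transcript led in every library, with at least 87.7% of the gene. For GSS 4 of 11 transcripts led in at least 1 library: ENST00000216951 had 16.0 FPKM in DMAG replicate 3 but 1.51 in DMAG replicate 2, where ENST00000643188 had 14.4. For GCLC, ENST00000229416 had 9.17 FPKM in DMAG replicate 3 against 0.265 and 0.319 in the other DMAG libraries, and ENST00000509541, which led elsewhere, was at 1.50 there and at 7.31 and 8.19. The GCLC sum of replicate 3 (16.4 FPKM) was still within the range of the group. For CTH, ENST00000346806 was at 2.16 FPKM in control replicate 1 and listed at 0 in the other 5 libraries. The most abundant transcript by itself gave log2 differences of -0.99 for GCLC, -0.11 for CTH and 0.01 for GSS, against -0.32, -0.47 and 0.27 for the sums. For CHAC1 it gave -1.76.

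**Figure D3:**
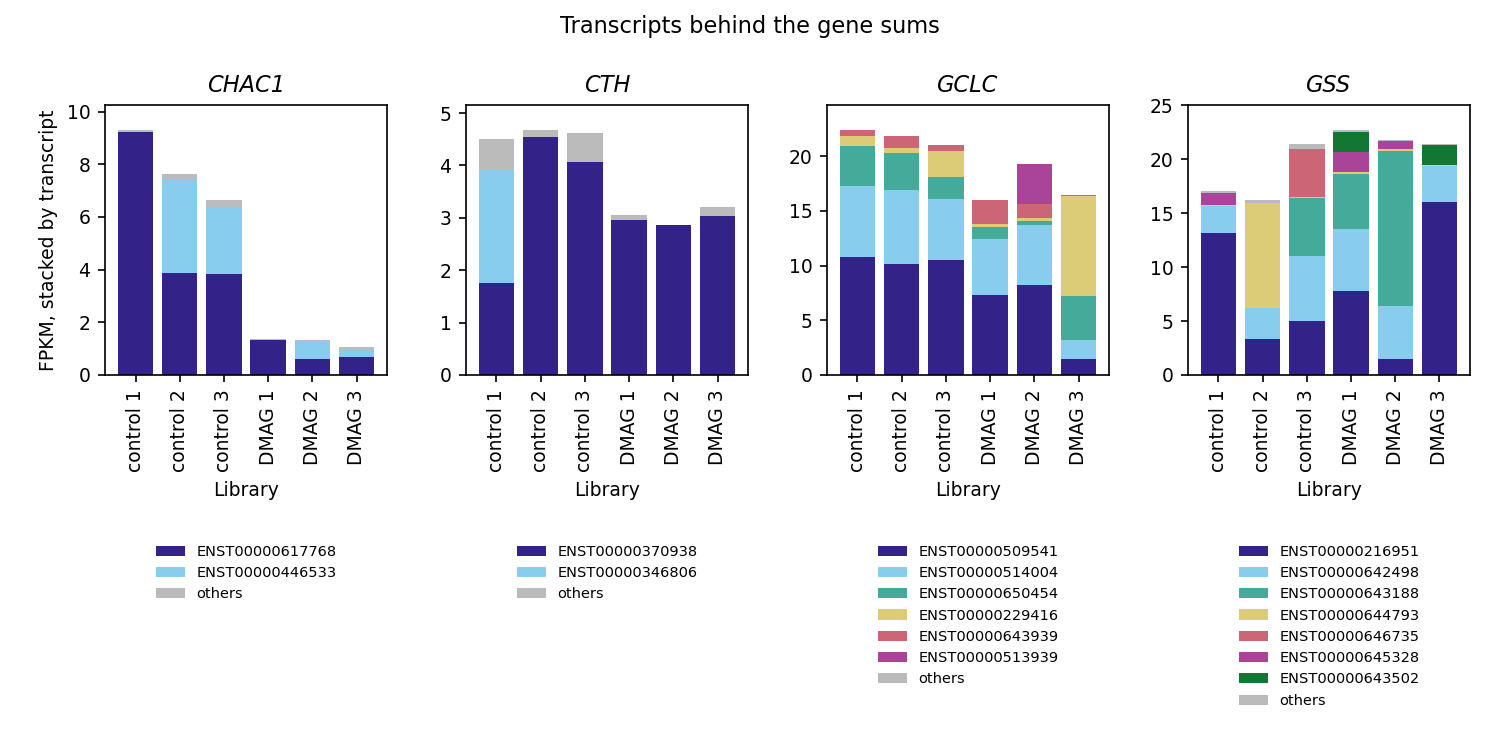
FPKM of each transcript of CHAC1, CTH, GCLC and GSS, stacked, by library; transcripts under 1 FPKM in every library are joined as others. The GSS bars reach 21.4 to 22.7 in the DMAG libraries, while ENST00000216951 is 16.0 in DMAG replicate 3 and 1.51 in DMAG replicate 2.

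The profiles most like those of the members with the deepest falls were ranked by distance over the 6 libraries (log2(FPKM + 1), each gene centred on its mean, 9882 other genes of at least 1 FPKM). The 4 nearest SLC7A11 were PTPN3, CA8, HIST1H1E and PSAT1, at distances of 0.12 to 0.18. PTPN3, a protein tyrosine phosphatase, averaged 17.0 ± 0.172 FPKM in controls and 4.84 ± 0.408 with DMAG. The 4 nearest CHAC1 were B3GNT7, PHGDH, SLC7A11 and UNC5C, at 0.34 to 0.52, so SLC7A11 was the third nearest to CHAC1, while CHAC1 was 29th from SLC7A11 (distance 0.49). PHGDH and PSAT1 make serine, a precursor of glycine and, through transsulfuration, of cysteine. The distances rest on shared libraries and mainly on the difference between the groups. SLC7A11 and CHAC1 were both chosen with their falls known, so nothing is read from their nearness, and a shared route among neighbours was not tested.

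Around the members, 206 genes in 9 lists were tested, without the members. Of these, 28 rose, 93 fell and 85 did not pass, beside 22.4% of all genes tested called higher and 26.1% called lower. The same shares stand beside the counts of each list below, and no list was tested as a set. With libraries at the same FPKM total 41 list genes rose and 78 fell. Over all genes the split went from 2333 higher and 2717 lower to 3219 and 1868, with the median log2 change at 0.08. SLC3A2, the heavy chain that holds xCT at the membrane, went from 90.7 ± 8.93 FPKM down to 63.1 ± 2.16 (n = 3 per group, limma adjusted p = 0.0023).

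ATF4 drives SLC7A11, CHAC1 and CTH in amino acid and endoplasmic reticulum stress. The list of ATF4 and its targets also holds EIF2AK kinases upstream of ATF4. Of its 43 tested genes 31 fell, 4 rose and 8 did not pass. Their median log2 change was -0.62 against -0.01 for all genes. ATF4 itself was at 230, 258 and 261 FPKM in controls and at 152, 156 and 172 with DMAG (1.56-fold lower, limma adjusted p = 6.9e-04). The targets with the smallest p were GARS, a tRNA synthetase (2.07-fold lower), DDIT4, an inhibitor of mTORC1 (2.43-fold), PSAT1 (3.09-fold) and SLC1A5, a glutamine carrier (2.36-fold). The 4 that rose were EIF2AK1, EIF2AK3, CEBPB and CEBPG, of which the first pair are kinases upstream of ATF4 (chosen after their values were seen). The 8 that did not pass, also named so, were ASNS, SLC1A4, PSPH, ATF3, PPP1R15A, KLHL24, EIF2AK2 and EIF2AK4. ASNS averaged 101 FPKM in controls and 103 with DMAG, and SLC1A4 46.2 and 46.1, so the list did not fall as a whole.

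NRF2, encoded by NFE2L2, drives SLC7A11, GCLC, GCLM and GSR under oxidative stress. NFE2L2 fell from 27.2 ± 0.952 to 20.3 ± 0.634 FPKM (limma adjusted p = 6.7e-04). Its repressors did not pass, KEAP1 at 28.9 ± 1.62 and 29.0 ± 0.993 FPKM and BACH1 at 28.3 ± 3.62 and 24.3 ± 0.524. Of 33 NRF2 regulators and targets 7 rose, 5 fell and 21 did not pass (11 and 4 at the same FPKM total), with a median log2 change of -1.9e-04. PGD, an NADPH-making enzyme of the pentose phosphate pathway, rose 1.33-fold, and MAFK, a partner of NRF2, fell 1.74-fold. The other 4 that fell were NFE2L2, ABCC4 (1.54-fold), TXN and TALDO1, the last pair chosen after their values were seen. NQO1, a widely used NRF2 target also chosen so, was at 9.82 and 9.62 FPKM on average.

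Genes listed for the supply of glutamate and glycine, the other parts of glutathione, were mostly lower. The list is wider than its name, since it also holds carriers of cysteine or cystine and genes of glycine cleavage. Of its 19 tested genes 15 fell, some of these wider ones among them, none rose and 4 did not pass, with a median log2 change of -0.40. PHGDH fell 3.93-fold, PSAT1 3.09-fold, SLC1A5 2.36-fold and the glutamine carrier SLC38A1 1.81-fold. PHGDH, PSAT1, SLC1A5 and other genes that fell are also in the list of ATF4 and its targets, so these lists are not independent. In the methionine cycle and sulfur list 5 of 24 rose and 7 fell (7 and 5 at the same FPKM total). TST, a mitochondrial sulfurtransferase, rose from 11.1 ± 0.362 to 25.9 ± 1.98 FPKM. AHCYL1 rose 1.36-fold, while AHCY, which yields the homocysteine used by CBS, fell 1.29-fold and ENOPH1 of methionine salvage 1.45-fold. The remaining 3 that rose, ADO, AHCYL2 and MAT2B, were named after their values were seen.

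Enzymes that use or turn over glutathione gave 14 of 26 lower and 4 higher (10 and 4 at the same FPKM total). CHAC2, the relative of CHAC1, fell from 12.1 ± 0.933 to 7.42 ± 0.215 FPKM. GLO1, the glyoxalase that detoxifies methylglyoxal with glutathione, fell 1.49-fold, the transferase GSTO1 1.53-fold and the peptidase LAP3 1.43-fold. The 4 that rose were GSTCD, GLRX, GSTZ1 and ANPEP, chosen after their values were seen.

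The parallel thioredoxin system had 8 of 22 lower and 4 higher (6 and 5 at the same FPKM total; 2 higher without control replicate 2, control replicate 3 or DMAG replicate 1). CAT, catalase, rose from 44.4 ± 2.39 to 103 ± 2.02 FPKM (limma adjusted p = 3.3e-05). TXNIP, which binds thioredoxin, fell 2.71-fold, SESN2 2.05-fold and the mitochondrial dismutase SOD2 1.67-fold. The other 3 that rose, TXNDC12, MSRA and TXNRD2, were named after their values were seen, and the calls of MSRA and TXNRD2 were lost without either of those controls or without DMAG replicate 1 or 2.

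The next list joins selenoprotein synthesis, on which GPX4 depends, with other selenoproteins. In it 6 of 20 fell and 2 rose (5 and 3 at the same FPKM total). The 2 were MSRB1 (1.46-fold) and TXNRD2, the second named after its value was seen; 1 rose without control replicate 3 or DMAG replicate 1. SECISBP2, which binds selenoprotein mRNAs so that selenocysteine can be inserted, fell 1.51-fold. SEPHS2, which makes the selenium donor, fell 1.29-fold and LRP8, a receptor for selenoprotein P, 1.77-fold. The synthesis genes EEFSEC, SEPSECS, PSTK, SEPHS1 and TRNAU1AP, named after their values were seen, did not pass.

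Genes of ferroptosis and iron handling gave 11 of 28 lower and 4 higher (10 and 7 at the same FPKM total). SAT1, a polyamine acetyltransferase, rose from 14.2 ± 0.688 to 56.0 ± 6.02 FPKM (limma adjusted p = 4.0e-05). SCD, a desaturase that makes monounsaturated fatty acids, fell 1.81-fold, PCBP1, an iron chaperone, 1.25-fold and CISD1 1.27-fold. The other 3 that rose were HSPB1, FTH1 and POR, named after their values were seen. For NADPH supply, which GSR needs, 9 of 18 fell and 3 rose (6 and 5 at the same FPKM total). The folate enzymes MTHFD2, MTHFD1L and MTHFD1 fell 1.94-, 1.93- and 1.35-fold, and PGD, TKT and ME1 rose, TKT and ME1 being named after their values were seen.

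**Figure D4:**
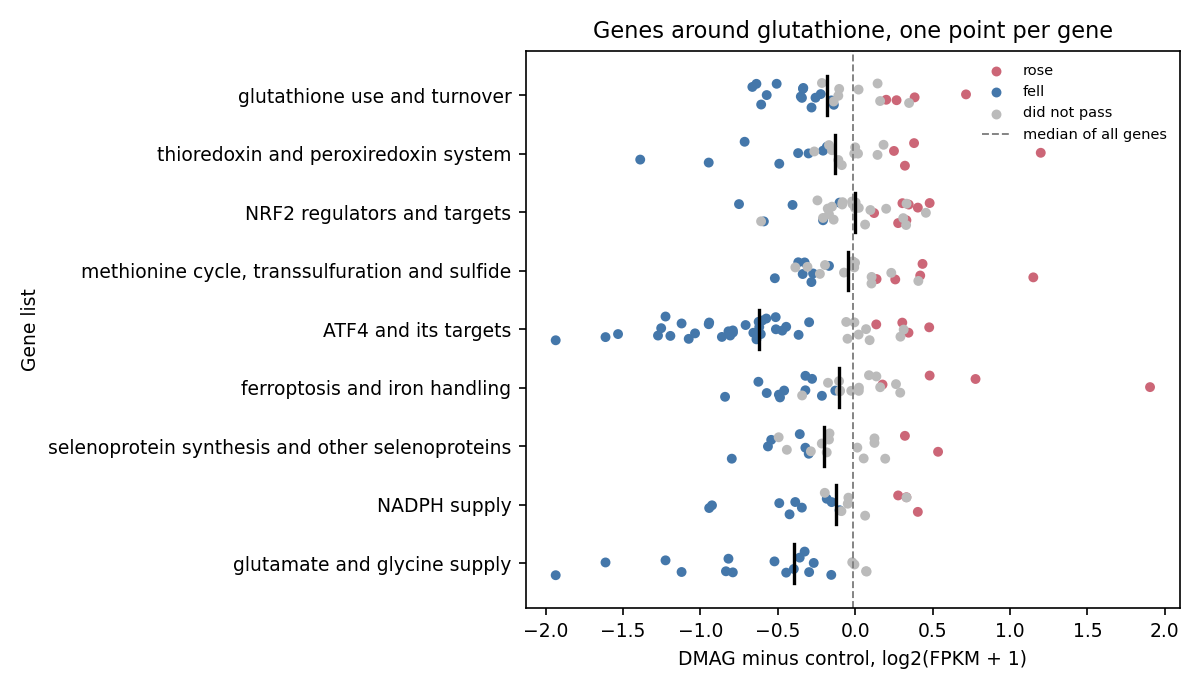
Difference between DMAG and control on log2(FPKM + 1) for each gene tested in the 9 lists (points; black bars are list medians, the dashed line the median of all genes at -0.01). The medians of ATF4 and its targets (-0.62) and of glutamate and glycine supply (-0.40) lie farthest to the left, and these lists share genes.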

How the data were processed

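The authors deposited FPKM per transcript for mRNAs of 3 control and 3 DMAG libraries, 83027 transcripts of 19659 genes. Per the submitters' processing notes the tools were StringTie 1.3.3, HISAT2 2.0.4 and Bowtie and the build was GRCh38; their roles and the rules of counting are not given in the sources at hand. FPKM values were summed per gene. Genes averaging 0.5 FPKM or more, 10394 in all, entered a fit by limma 3.58.1 in R 4.3.3 on log2(FPKM + 1), with moderated variances and a mean trend, and p-values were adjusted by Benjamini-Hochberg over all of them and called under 0.05. A log2 change on this scale understates the change of low genes. P-values measure the spread between these samples only, which may be technical. The members and lists were chosen with earlier results of these data known. Named were all members, NFE2L2, KEAP1, BACH1, ATF4, SLC3A2, up to 4 called genes of at least 1 FPKM with the smallest p of each list, and the 4 genes nearest SLC7A11 and CHAC1; others are marked. Alternatives were other pseudocounts, filters and scalings, no trend, a replicate block, single transcripts and leaving out each library. The lncRNA, circular RNA and miRNA tables hold no row named by a member and were not used here. Promoter windows came from RefSeq (GRCh38.p14) and gave the coordinates; they held no entry for SLC7A11, GSS and GSR. A marker gene of the lineage list is not reported here.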

Additional observations from a re-analysis of the deposited data

How the results depend on the processing

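Since the members were chosen with this contrast known, their calls are a description and support nothing. SLC7A11, CHAC1, CTH, GCLC and GPX4 were called lower and GCLM higher under each of the 13 alternatives run on gene sums. GSR lost its call at the same median, without trend and with the replicate block, beside the settings given above, and GSS gained one at the same FPKM total or without control replicate 3. The number of members called higher was thus 2 at the same FPKM total, and 1 to 2 when a library was left out. The number of members called was 6 to 7 and that of list genes 109 to 119 when a library was left out, and all genes called numbered 4246 to 4586 in place of 5050. KEAP1, which did not pass, turned to -0.035 without control replicate 1 and to -0.025 without DMAG replicate 1. BACH1 was called without control replicate 2 (log2 change -0.28, limma adjusted p = 0.036). The other list genes named by the rule kept direction and call when a library was left out and at the same median or total. Of those named after their values were seen, TXNRD2, MSRA and TALDO1 lost their calls without control replicate 2, control replicate 3 or DMAG replicate 1 or 2, among others, and TALDO1 also at the same median or total.

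The labels give both groups the numbers 1 to 3 but do not say that a number marks a shared culture. Deviations of same-numbered libraries correlated at -0.0048, 0.043 and 0.027, and those of differently numbered libraries at -0.048 to 0.019. With 3 libraries per group these values cannot settle whether samples were paired. The fit was unpaired because the labels give no pairing. With the replicate number as a block 4491 genes, 6 members and 114 list genes were called. Sequencing depth is unknown, which leaves the precision of low genes such as CBS unknown.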
